A study of Homo sapiens with 6 samples.

Results

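The genes described here are targets of the hypoxia-inducible factors (HIF) that lie outside glycolysis. They form a set of 35 genes known as targets of the pathway, of which 33 were measured among the 19775 genes of the array table, while CA9 and FUT11 were not analysed here. Every probe set whose annotation named a gene of the set was collected, 91 in all, and each gene was represented by its brightest probe set, judged by the mean of all 6 arrays. The arrays carried 6 RNA samples of HCT116, an established human colorectal carcinoma line, profiled on single-channel Affymetrix arrays. In 3 of them CDK4 was targeted with a pool of siRNAs and CDK6 with 1 further siRNA, at 30 nM each, and the other 3 received a non-targeting pool and a negative control siRNA, also at 30 nM each. RNA was taken 96 h after transfection in both groups. All samples were of this 1 line, had the same lipid reagent and had their medium replaced the day after transfection. No oxygen level is stated in the labels, and no culture with lowered oxygen or altered HIF was analysed here, so the genes are HIF targets by what is known of them elsewhere.

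HIF is a pair of proteins, an alpha subunit (HIF1A or EPAS1) that is destroyed while oxygen is plentiful and a stable partner (ARNT). Prolyl hydroxylases of the EGLN family use oxygen to mark the alpha subunit, and the VHL ubiquitin ligase then removes it. The pair binds short DNA elements whose core reads ACGTG or GCGTG and raises genes that carry oxygen supply, acid export, collagen maturation, mitophagy and a switch of metabolism, programmes that are often active in solid tumours.

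Values are expression on a log2 scale as made by RMA, a method that equalises the distributions of the arrays, so changes are read against the bulk of the genes. Array medians over all probe sets lay between 5.36 and 5.37 in CDK4/6 siRNA arrays and between 5.37 and 5.39 in control siRNA arrays, and arrays correlated across genes at 0.998 within groups and 0.991 to 0.994 between groups. Both targets were lower, CDK4 at 62.2% and CDK6 at 34.0% of the control level. The 6 epithelial marker genes averaged between 11.99 and 12.01 in CDK4/6 siRNA arrays and between 11.88 and 11.99 in control arrays, but CDH1 (-0.54) was called lower and KRT8 (0.59) and KRT18 (0.51) higher. Fibroblast, endothelial and leukocyte markers averaged between 4.62 and 5.43 in CDK4/6 siRNA arrays and between 4.70 and 5.49 in control arrays. Among these, COL1A1 (-0.49) and ITGAM (-0.23) were called lower. The 5 called markers were picked out after their values were seen, and their part in the results below was not tested. In bulk RNA, fewer cells with a transcript and less of it per cell cannot be told apart.

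Most of the HIF targets fell after CDK4/6 siRNA. The set was chosen with earlier results of these data known, so its counts are a description and not an independent test. Of the 33 measured, limma called 24 lower and 2 higher at an adjusted p under 0.05, and 7 were not called. Over all genes 12.9% were called lower and 14.0% higher, 26.8% in either direction. The median log2 fold change of the 33 genes, CDK4/6 siRNA minus control siRNA, was -0.66, which is 63.5% of the control level, and the median over all genes was -0.0011. In 26 genes every CDK4/6 siRNA array lay below every control array and in 3 genes above, and the same was true of 20.3% and 20.6% of all genes. The falls of the 24 genes ran from 0.26 to 1.16 on the log2 scale, with standard errors between 0.057 and 0.108, and 16 of them lay between 0.5 and 1. Only 4 of the set, BHLHE41, ANGPTL4, SPAG4 and BHLHE40, were called with a fall of at least 1, a size that 0.298% of all genes reached. When each gene's probe sets were averaged, ANGPTL4 (-1.07) still did, while SPAG4 (-1.06) has only 1 probe set, so averaging could not change it.

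The genes of this set stood higher on the array scale than most, with a median level of 10.15 against 6.47 over all genes, and calls were more frequent at higher levels. Among the 6255 genes with a mean level of 8 or more, a floor chosen after the data were seen, 22.3% were called lower and 27.7% higher. At that level the set had 24 genes, of which 21 were lower, 0 higher and 3 not called, and their median was -0.68 against 0.013 for all genes at that level. Below it lay 9 genes, 3 of them lower, 2 higher and 4 not called.

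The arrays of the 2 groups differed in spread for these genes. The mean level of the 33 genes was 9.19, 9.20 and 9.20 in CDK4/6 siRNA replicates 1, 2 and 3, and 9.67, 9.76 and 9.80 in control replicates 1, 2 and 3. The CDK4/6 siRNA arrays were nearly alike, and all 3 lay below the lowest control array. Control replicate 1 was the lowest of its group in 18 of the 24 lowered genes, and control replicate 3 the highest in 18. Within groups the median SD of the set was 0.054 in CDK4/6 siRNA and 0.085 in control arrays, while over all genes it was 0.073 and 0.078. Without control replicate 1 the median change was -0.68 and without control replicate 3 it was -0.61.

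The size of the falls depends in part on the scaling of the arrays. The 18 hybridisation spike-in probe sets, RNAs added in fixed amounts during array preparation, averaged 10.15 in CDK4/6 siRNA arrays and 10.25 in control arrays (two-sided exact permutation p = 0.1, n = 3 each, the smallest this design allows). Scaling to them moved the median of all genes to 0.11, with 1320 of 19775 genes called lower and 4731 higher. On that scaling 22 members were called lower and 3 higher, with a median of -0.55.

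**Figure D1:**
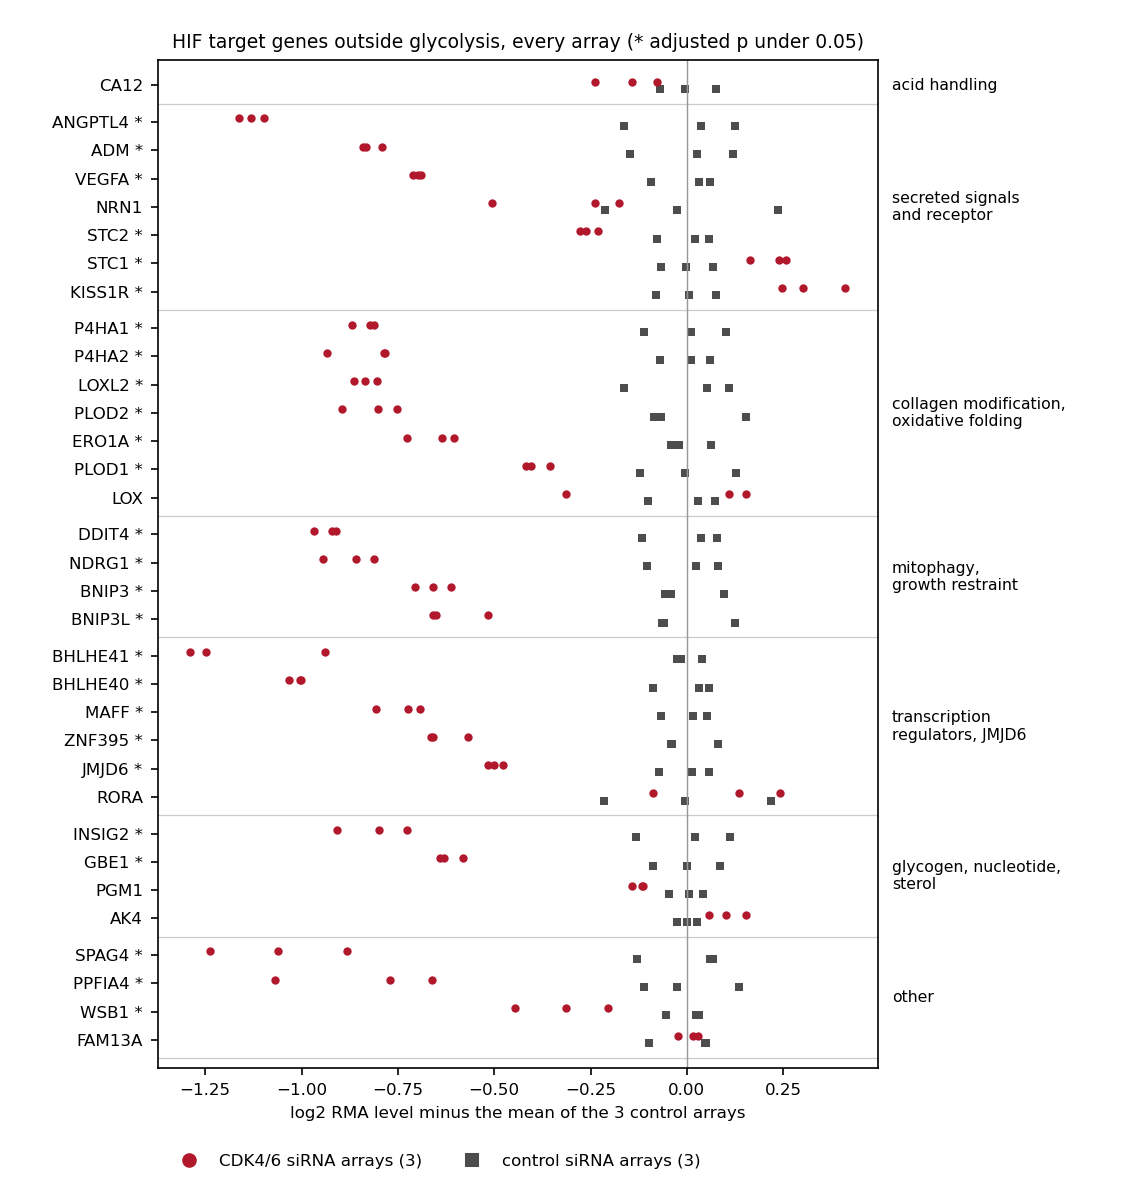
Each row is 1 of the 33 measured HIF targets, grouped by role, and each point is 1 array, plotted as its log2 RMA level minus the mean of the 3 control arrays; circles are CDK4/6 siRNA and squares control siRNA, and an asterisk marks a limma adjusted p under 0.05. The circles lie left of all squares in 26 rows and right of them in KISS1R, STC1 and AK4.

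The promoters of the lowered genes often held the HIF core letters close to the gene start. RefSeq promoters on GRCh38.p14 were used for 24 of the 33 measured genes, 17 of them among the 24 lowered, and the 250 bases before each start were searched on both strands. ACGTG stood in at least 1 window of 13 of the 17 lowered genes (76.5%) and of 4 of the 7 others (57.1%), and in 25.6% of the 15384 measured genes with a promoter. GCGTG stood in 12 of the 17 (70.6%), in 4 of the 7 others and in 45.8% of the measured genes. The E-box CACGTG, which holds ACGTG on both strands and is also bound by MYC and by BHLHE40, was found in 6 of the 17 (35.3%), in 2 of the 7 and in 9.7% of the measured genes. By promoter window in place of gene, 18.5% of 35116 windows held ACGTG, 32.2% GCGTG and 6.3% CACGTG. Across the table ACGTG was present for 31.1% of genes called lower and 29.0% of genes called higher. These genes are in the set as known HIF targets, chosen with earlier results of these data known. The counts describe the set and are not independent of how it was chosen, and a match is not a binding site.

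The windows below belong to the 5 lowered genes with the largest falls among those with a window that holds ACGTG, and show where and how often the letters occur. They cover chr12:26125038-26125287 (minus strand) for BHLHE41, chr19:8363905-8364154 (plus strand) for ANGPTL4, chr3:4979187-4979436 (plus strand) for BHLHE40, chr10:72273674-72273923 (plus strand) for DDIT4 and chr10:73096867-73097116 (minus strand) for P4HA1. Each is written 5′ to 3′ along the gene and ends at the base before the gene start, and capitals mark ACGTG or its reverse complement CACGT.
BHLHE41: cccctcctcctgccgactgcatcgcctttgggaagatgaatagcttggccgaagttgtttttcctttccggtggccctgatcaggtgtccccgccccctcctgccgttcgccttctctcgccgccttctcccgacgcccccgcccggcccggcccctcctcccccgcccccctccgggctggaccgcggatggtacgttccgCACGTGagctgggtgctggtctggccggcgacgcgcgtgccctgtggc
ANGPTL4: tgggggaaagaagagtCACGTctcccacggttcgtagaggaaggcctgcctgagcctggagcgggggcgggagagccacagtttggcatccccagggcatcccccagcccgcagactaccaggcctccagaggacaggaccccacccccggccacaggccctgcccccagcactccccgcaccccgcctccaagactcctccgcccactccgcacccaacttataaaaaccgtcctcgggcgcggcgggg
BHLHE40: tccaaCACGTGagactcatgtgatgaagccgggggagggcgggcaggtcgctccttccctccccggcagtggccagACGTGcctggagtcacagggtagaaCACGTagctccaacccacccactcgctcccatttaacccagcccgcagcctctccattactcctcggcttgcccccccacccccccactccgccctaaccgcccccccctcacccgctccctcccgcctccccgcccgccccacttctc
DDIT4: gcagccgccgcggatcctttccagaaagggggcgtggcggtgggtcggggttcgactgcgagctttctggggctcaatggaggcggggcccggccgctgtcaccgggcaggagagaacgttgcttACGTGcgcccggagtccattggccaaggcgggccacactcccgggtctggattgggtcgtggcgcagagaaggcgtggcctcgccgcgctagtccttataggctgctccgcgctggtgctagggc
P4HA1: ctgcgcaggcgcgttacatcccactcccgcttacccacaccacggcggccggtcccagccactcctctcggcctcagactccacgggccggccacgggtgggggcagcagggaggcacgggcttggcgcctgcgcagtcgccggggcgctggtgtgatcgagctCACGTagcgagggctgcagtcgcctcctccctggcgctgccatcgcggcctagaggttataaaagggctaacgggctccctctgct
In BHLHE41 the capitals are 1 CACGTG, whose first letter is 48 bases before the start. BHLHE40 held the letters 4 times, 2 of them in a CACGTG that begins 245 bases before the start. A single ACGTG lay 234 bases before the start in ANGPTL4, 125 in DDIT4 and 86 in P4HA1. The other core, GCGTG, is not in capitals, and in these windows BHLHE41 held it 1 time and DDIT4 2 times. Of the 17 lowered genes with a window, ADM, P4HA2, PLOD1 and STC2 held no ACGTG there. Of these, ADM held 1 GCGTG, PLOD1 2 and STC2 3, and only P4HA2 held neither. An absent match says only that the letters are not in this window.

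**Figure D2:**
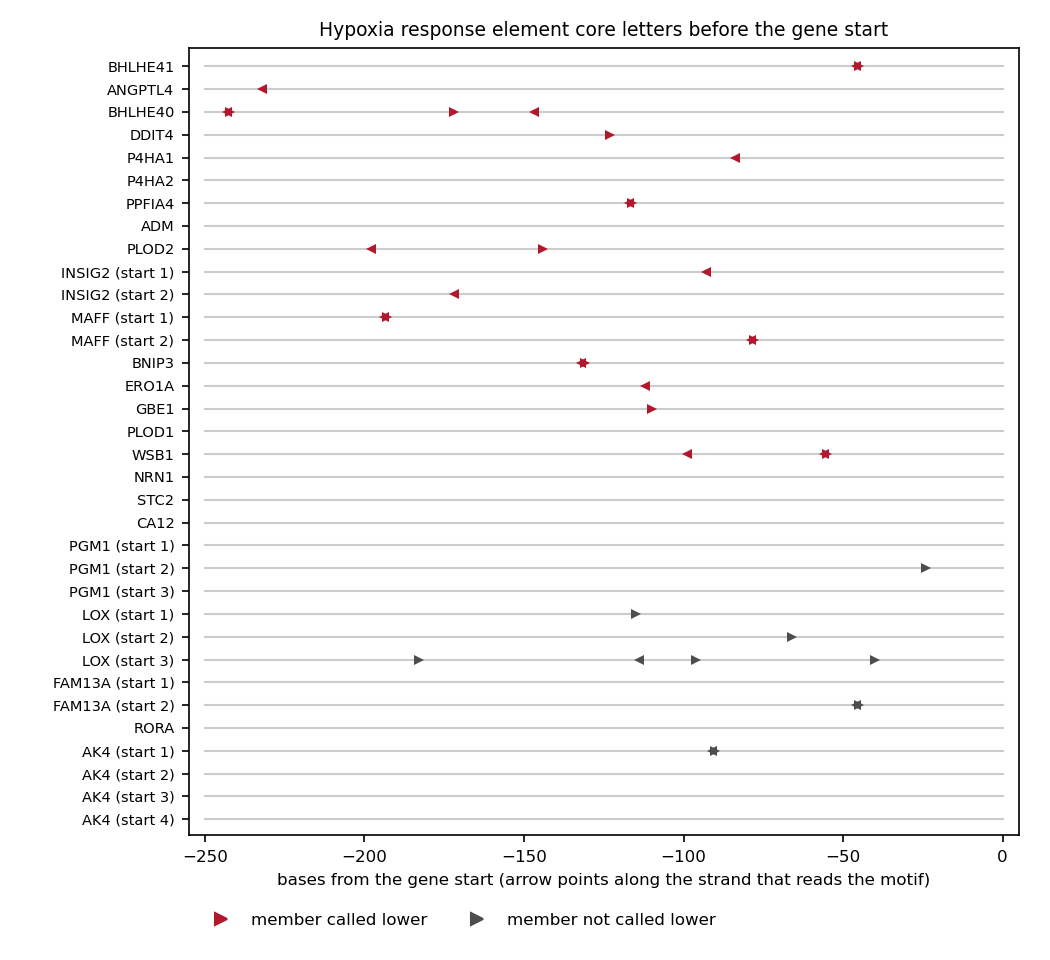
Each line is the 250 bases before 1 annotated start of a measured HIF target, ordered by log2 fold change with the largest fall at the top, and each arrow is 1 ACGTG, pointing along the strand that reads it; pairs of opposite arrows that overlap are CACGTG. Red marks genes called lower and grey genes not called lower, and the matches lie between 26 and 245 bases before the start. GCGTG is not drawn.

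Among transcription regulators, taken with the hydroxylase JMJD6, 5 of 6 genes fell. BHLHE41 had the largest fall of the set by brightest probe set. Beside the counts by role here and below, 12.9% of all genes were called lower and 14.0% higher. Of genes with a mean level of 8 or more it was 22.3% and 27.7%. BHLHE41, a repressor that binds E-boxes and damps the circadian clock, had 6.10, 6.41 and 6.06 in CDK4/6 siRNA replicates 1, 2 and 3, against 7.34, 7.33 and 7.39 in control replicates 1, 2 and 3. Its paralog BHLHE40 had 10.41, 10.45 and 10.44 in CDK4/6 siRNA arrays, against 11.36, 11.51 and 11.48 in control arrays. In both genes the CDK4/6 siRNA arrays lay below every control array by a wide margin relative to the spread within groups. BHLHE41 fell by 1.16 (SE 0.091), which left 44.8% of the control level, and BHLHE40 by 1.01 (SE 0.059), which left 49.5%, with limma adjusted p of 8.53e-05 and 3.64e-05. With the mean of all its probe sets BHLHE41 gave -0.33, and its plain-name probe set, without the suffix for probes shared between transcripts, gave 0.11 and was not called. MAFF, a small MAF protein that pairs with other leucine zipper factors, was at 9.98 ± 0.059 in CDK4/6 siRNA arrays and 10.72 ± 0.060 in control arrays (SD, n = 3 each) and fell by 0.74. The zinc finger protein ZNF395 fell by 0.63 (SE 0.061). JMJD6, a hydroxylase of lysines in splicing and chromatin proteins, had 10.51, 10.49 and 10.47 in CDK4/6 siRNA arrays, against 10.92, 11.00 and 11.05 in control arrays, and fell by 0.50 (SE 0.057), or by 0.22 with the mean of its probe sets. RORA, a nuclear receptor of the clock, had 5.19, 5.52 and 5.42 in CDK4/6 siRNA arrays, against 5.07, 5.28 and 5.50 in control arrays, and gave 0.10 (SE 0.118, limma adjusted p = 0.626). Its groups overlapped, and none of its 8 probe sets was called.

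Of the secreted signals 4 fell and STC1 rose, a call that was lost under several alternatives. ANGPTL4, a secreted inhibitor of lipoprotein lipase, had 9.14, 9.18 and 9.21 in CDK4/6 siRNA arrays, against 10.14, 10.34 and 10.43 in control arrays. ADM, the vasodilating peptide adrenomedullin, had 11.44, 11.43 and 11.48 in CDK4/6 siRNA arrays, against 12.12, 12.39 and 12.30 in control arrays. VEGFA, the main growth factor of blood vessels, had 9.69, 9.68 and 9.70 in CDK4/6 siRNA arrays, against 10.29, 10.42 and 10.45 in control arrays. The 3 genes share a pattern of tightly grouped CDK4/6 siRNA arrays and more widely spread controls, with control replicate 1 the lowest of its group in each. ANGPTL4 fell by 1.13 (SE 0.077), ADM by 0.82 (SE 0.073) and VEGFA by 0.70 (SE 0.059), to 45.7%, 56.6% and 61.6% of the control level, with limma adjusted p of 5.33e-05, 0.000123 and 0.000108. STC2, a secreted stanniocalcin, fell by 0.26 (SE 0.058) on the probe set that stood for it and by 0.85 on its other probe set, or 0.55 with the mean of both. In all, 4 of the 7 genes of secreted signals and their receptors fell and 2 rose. The call on the first STC2 probe set was lost under spike-in scaling (-0.15, adjusted p = 0.123).

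KISS1R and STC1 were the genes of the set called higher. KISS1R, the receptor for kisspeptin, had 7.81, 7.86 and 7.97 in CDK4/6 siRNA arrays, against 7.63, 7.56 and 7.48 in control arrays, and rose by 0.32 (SE 0.067, limma adjusted p = 0.00709). KISS1R has only 1 probe set, so other choices of probe set could not change that value. STC1, the other stanniocalcin, had 5.88, 5.81 and 5.90 in CDK4/6 siRNA arrays, against 5.64, 5.58 and 5.71 in control arrays, and rose by 0.22 (SE 0.060, limma adjusted p = 0.0238). In both genes the groups did not overlap. STC1 was no longer called without CDK4/6 siRNA replicate 1 (0.21), CDK4/6 siRNA replicate 3 (0.20), control replicate 1 (0.22) or control replicate 2 (0.19). The STC1 call also ended with trend and robust variance (adjusted p = 0.0514), without variance moderation (adjusted p = 0.0505) and when its probe sets were averaged (log2 fold change 0.030, adjusted p = 0.727), and its 2 other probe sets gave -0.11 and -0.021. NRN1, the membrane-anchored neuritin, had 4.69, 4.36 and 4.63 in CDK4/6 siRNA arrays, against 4.65, 5.10 and 4.84 in control arrays, and was not called (-0.31, SE 0.122). Without control replicate 1 it was called lower (-0.41). CA12, a membrane carbonic anhydrase that hydrates carbon dioxide outside the cell, was also not called, at -0.15 (SE 0.066, limma adjusted p = 0.129). On that probe set its CDK4/6 siRNA arrays, between 7.61 and 7.78, all lay below its control arrays, between 7.78 and 7.93. The groups overlapped on every other CA12 probe set, with changes from -0.18 to 0.11 and no call.

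Enzymes that modify collagen fell nearly as a block. P4HA1, a catalytic subunit of the prolyl hydroxylase that stabilises collagen, had 11.86, 11.85 and 11.80 in CDK4/6 siRNA arrays, against 12.56, 12.68 and 12.77 in control arrays. Its paralog P4HA2 had 9.78, 9.63 and 9.78 in CDK4/6 siRNA arrays, against 10.49, 10.57 and 10.62 in control arrays. LOXL2, a lysyl oxidase that crosslinks collagen, had 8.46, 8.49 and 8.52 in CDK4/6 siRNA arrays, against 9.16, 9.38 and 9.44 in control arrays. On these probe sets the 3 genes had falls of like size, with no overlap of the groups in any. P4HA1 fell by 0.84 (SE 0.066), P4HA2 by 0.83 (SE 0.065) and LOXL2 by 0.83 (SE 0.076), each to 56.1% of the control level, with limma adjusted p of 8.85e-05, 8.53e-05 and 0.000133. With the mean of all probe sets they were still called, at -0.47 for P4HA1, -0.31 for P4HA2 and -0.22 for LOXL2. Of the lysyl hydroxylases, which prepare collagen for crosslinking, PLOD2 had 10.45, 10.59 and 10.55 in CDK4/6 siRNA arrays, against 11.28, 11.26 and 11.50 in control arrays, and fell by 0.82 (SE 0.077). PLOD1 fell by 0.39 (SE 0.071), with 9.97, 9.91 and 9.92 in CDK4/6 siRNA arrays, against 10.20, 10.32 and 10.45 in control arrays. ERO1A, which reoxidises protein disulphide isomerase in the endoplasmic reticulum, fell by 0.66 (SE 0.060), and by 1.01 and 0.84 on its other probe sets. LOX, the founding lysyl oxidase, had 4.01, 3.58 and 4.05 in CDK4/6 siRNA arrays, against 3.79, 3.93 and 3.97 in control arrays. Its groups overlapped, its change was -0.016 (SE 0.118), and its 3 probe sets had mean levels at the low end of the array scale, 3.89 for the highest. In this group 6 of 7 genes fell and 0 rose.

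All 4 genes of mitophagy and growth restraint fell. BNIP3, which sits on the outer mitochondrial membrane and recruits the autophagy machinery, had 12.17, 12.26 and 12.21 in CDK4/6 siRNA arrays, against 12.83, 12.82 and 12.97 in control arrays. BNIP3L, its relative with the same role, had 11.62, 11.76 and 11.62 in CDK4/6 siRNA arrays, against 12.21, 12.21 and 12.40 in control arrays. The pair moved by similar amounts, BNIP3 by -0.66 (SE 0.063) and BNIP3L by -0.61 (SE 0.072), and both probe sets of each gene were called lower. DDIT4, an inhibitor of mTORC1 also known as REDD1, had 11.85, 11.90 and 11.89 in CDK4/6 siRNA arrays, against 12.70, 12.89 and 12.85 in control arrays. NDRG1, a stress-responsive protein linked to differentiation, had 12.48, 12.35 and 12.44 in CDK4/6 siRNA arrays, against 13.19, 13.32 and 13.38 in control arrays. No array of 1 group reached the range of the other in either gene. DDIT4 fell by 0.93 (SE 0.065) and NDRG1 by 0.87 (SE 0.067), to 52.4% and 54.7% of the control level, with limma adjusted p of 5.90e-05 and 8.27e-05.

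The metabolic genes were divided. INSIG2, which holds the sterol sensor complex in the endoplasmic reticulum, had 9.97, 10.15 and 10.08 in CDK4/6 siRNA arrays, against 10.75, 10.90 and 10.99 in control arrays, and fell by 0.81 (SE 0.078, limma adjusted p = 0.000167). GBE1, the glycogen branching enzyme, had 10.84, 10.90 and 10.85 in CDK4/6 siRNA arrays, against 11.39, 11.48 and 11.57 in control arrays, and fell by 0.62 (SE 0.062, limma adjusted p = 0.000200). The groups were apart in both. PGM1, which interconverts glucose phosphates on the way to and from glycogen, had 10.35, 10.35 and 10.32 in CDK4/6 siRNA arrays, against 10.42, 10.51 and 10.47 in control arrays. Its arrays did not overlap either, but its change of -0.12 (SE 0.053) was not called, except when the variance was fitted with a trend and robustly. AK4, a mitochondrial adenylate kinase, had 11.04, 11.09 and 11.00 in CDK4/6 siRNA arrays, against 10.96, 10.94 and 10.91 in control arrays. Its change of 0.10 (SE 0.054) was not called as deposited and was called under spike-in scaling (0.21, adjusted p = 0.042). The other AK4 probe sets gave -0.13, -0.16 and 0.0023 and were not called. On the first 2 of these every CDK4/6 siRNA array lay below every control array. The direction for AK4 therefore differed between probe sets.

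Of the remaining genes 3 of 4 fell. SPAG4, a SUN domain protein of the nuclear envelope, had 6.20, 6.02 and 6.38 in CDK4/6 siRNA arrays, against 7.32, 7.13 and 7.33 in control arrays, and fell by 1.06 (SE 0.096), which left 47.9% of the control level. PPFIA4, a scaffold protein of the liprin family, had 5.82, 5.71 and 5.41 in CDK4/6 siRNA arrays, against 6.46, 6.62 and 6.37 in control arrays, and fell by 0.83 (SE 0.108), with the widest standard error of the lowered genes. Both kept their groups apart, and limma adjusted p was 0.000131 and 0.000628. WSB1, a substrate adaptor of a ubiquitin ligase, had 10.34, 10.58 and 10.47 in CDK4/6 siRNA arrays, against 10.73, 10.81 and 10.82 in control arrays, and fell by 0.32 (SE 0.071). That call was lost under spike-in scaling (-0.21, adjusted p = 0.0879) and without variance moderation (adjusted p = 0.0578). Of the further WSB1 probe sets, 2 fell by 0.75 and 0.80, at mean levels of 7.41 and 6.88. The second brightest, at 10.56 against 10.63 for the brightest, gave -0.21 and was not called (limma adjusted p = 0.0863). FAM13A gave 0.0080 (SE 0.061), with overlapping groups on the probe set that stood for it.

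Most genes could be followed on more than 1 probe set. Fitted separately, 44 of the 91 probe sets of the set were called lower (48.4%), 2 higher and 45 not called, where 8.17% of all 54613 probe sets were called lower and 8.86% higher. Of the 24 lowered genes 16 had further probe sets, 34 in all, of which 20 were called lower, 0 higher and 14 not called. Every probe set was lower in 9 genes, VEGFA with 4, ERO1A with 3, and ANGPTL4, BHLHE40, BNIP3, BNIP3L, MAFF, PLOD2 and STC2 with 2 each. The other VEGFA probe sets fell by 0.35, 0.47 and 0.67, the second ANGPTL4 probe set by 1.00 and the second BHLHE40 probe set by 0.80. The 14 that were not called had levels from 3.05 to 10.56 with a median of 4.60, and the 20 that were called had a median level of 8.12. BHLHE41 was lower on 2 of 4 probe sets, and the others, with mean levels of 4.48 and 3.74, gave 0.11 and 0.043 and were not called. LOXL2 rests on 1 of 4 probe sets, P4HA1 on 1 of 2, where the other gave -0.11, and P4HA2 on 1 of 3. WSB1 was lower on 3 of 6, and its 2 probe sets with a plain name gave 0.098 and 0.033 with no call. For ZNF395, 5 of 6 were lower, and 3 of these are annotated to FBXO16 as well.

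**Figure D3:**
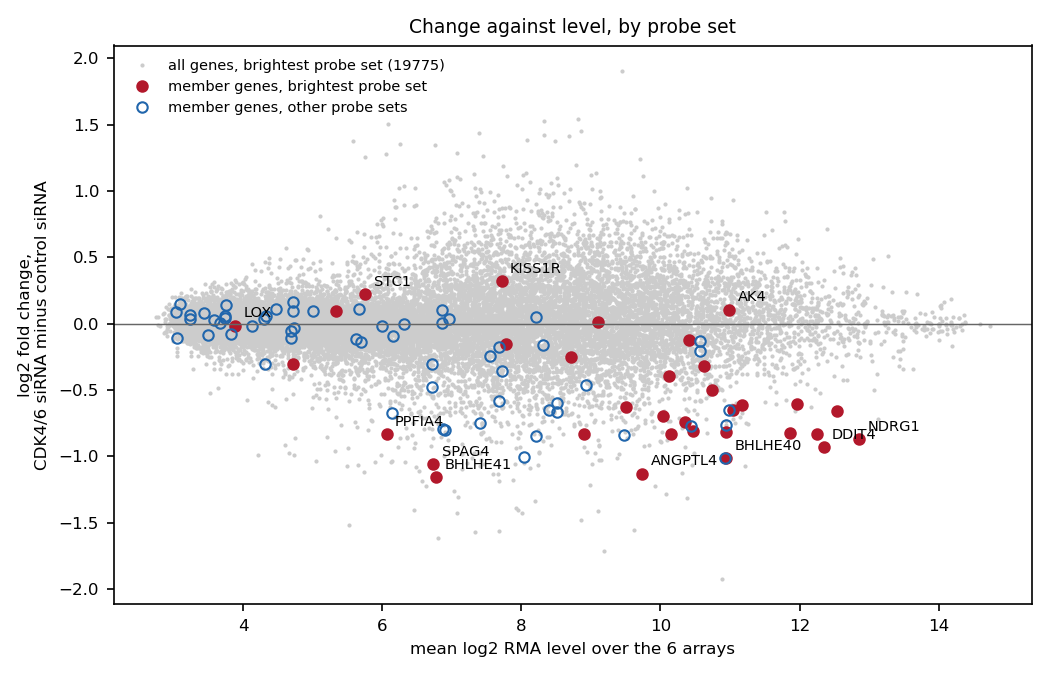
Log2 fold change, CDK4/6 siRNA minus control siRNA, is plotted against the mean log2 RMA level over the 6 arrays; filled circles are the probe sets that stand for the 33 HIF targets, open circles their other probe sets, and grey points all 19775 genes. The filled circles at levels of 8 or more are mostly below 0, and the circles at the lowest levels lie near 0.

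Other HIF targets fell too, while the list of HIF subunits and oxygen sensors held calls in both directions. The lists of these further genes were also written with earlier results of these data known, so their counts are descriptive. Of all genes, 12.9% were called lower and 14.0% higher. Of genes with a mean level of 8 or more, 22.3% were called lower and 27.7% higher. Of 22 measured HIF targets with other roles, 20 were lower and 0 higher, with a median of -0.50 and the lipid droplet protein HILPDA (-0.93), the prolyl hydroxylase EGLN3 (-0.98), the LIM domain protein CSRP2 (-0.81) and ANKRD37 (-1.92) among them. Of 21 measured targets in the list of glycolysis and lactate export, 16 were lower and 1 higher, with a median of -0.32. The lactate exporter of that list, SLC16A3, was not analysed here, so the counts do not cover lactate export. ENO2 (-1.28), ALDOC (-1.13), SLC2A3 (-1.22) and PFKFB4 (-0.78) fell, and the glucose transporter SLC2A1 (0.22), named after its value was seen, rose. In the list of HIF subunits and oxygen sensors, which shares EGLN1 and EGLN3 with the first, 4 of 10 were lower and 2 higher. Both shared genes are among the 4, so they count as lower in both lists. ARNT, the shared partner of the alpha subunits, had 7.81 ± 0.012 in CDK4/6 siRNA arrays and 8.42 ± 0.018 in control arrays (SD, n = 3 each) and fell by 0.62 (SE 0.051, limma adjusted p = 9.43e-05). EPAS1, also known as HIF2A, fell by 0.50, while HIF1AN, the asparagine hydroxylase that silences the alpha subunits, rose by 0.45. HIF1A, named after its value was seen, rose by 0.26. Each gene of the lists in this paragraph, ARNT included, was read on its brightest probe set alone. Of 14 ATF4 targets, genes of amino acid stress, 5 were lower and 2 higher, with a median of -0.0051. DDIT3 (-0.98), ATF3 (-0.77) and CEBPB (-0.47) fell, and PSAT1 (0.71), an enzyme of serine synthesis, rose. Under spike-in scaling 18 of the 22 other targets and 12 of the 21 glycolytic ones were lower. The subunits and sensors had 3 lower and 3 higher with a median of 0.032. The ATF4 targets had 4 lower and 3 higher with a median of 0.10, close to the median of 0.11 over all genes. Of all 19775 genes, 1320 were lower and 4731 higher on that scaling.

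**Figure D4:**
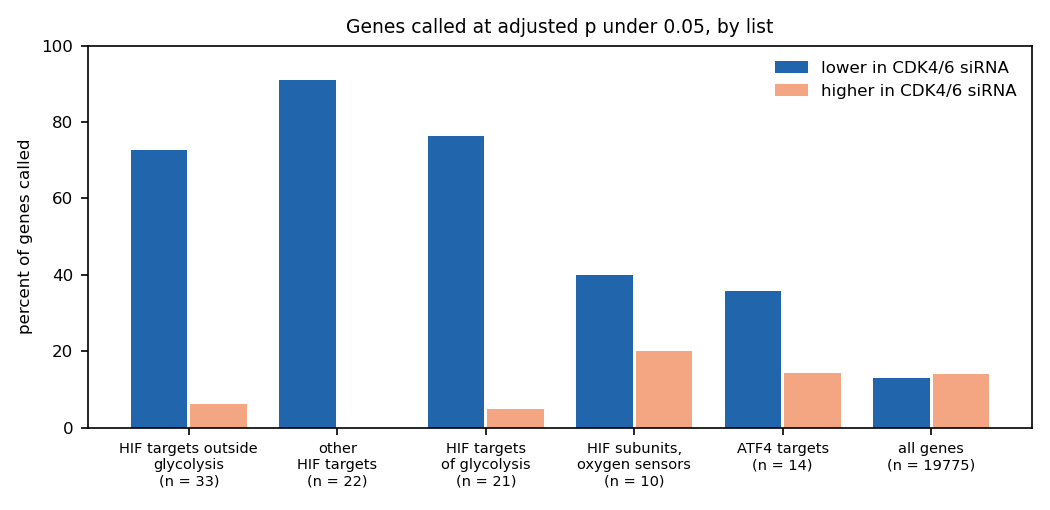
Bars give the percent of measured genes called lower (blue) or higher (orange) in CDK4/6 siRNA cells at a limma adjusted p under 0.05, for the HIF targets outside glycolysis, the 4 context lists and all genes, with the number of measured genes under each. The set has 72.7% lower and 6.06% higher, and all genes have 12.9% lower and 14.0% higher.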

How the data were processed

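Expression was measured in 6 HCT116 samples on single-channel Affymetrix arrays, 3 per group by the labels. The values the authors deposited are log2 expression made by RMA, per the submitters' processing notes, with its version not given in the sources used here. The labels call the arrays biological replicates without naming separate cultures, so p-values cover only how far these arrays scatter, and their number limits the precision.

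Of 54675 probe sets, 62 array controls were left out. Symbols came from the platform annotation, where 41091 probe sets had 1 symbol, 1801 several and 11783, the controls among them, none that was used. Only for the members did probe sets with several symbols count. The brightest probe set stood for each gene and no filter on level was applied. Groups were compared with lmFit and eBayes of limma 3.58.1 (R 4.3.3), group as the only term, with Benjamini-Hochberg adjustment over 19775 genes, and a call needed an adjusted p under 0.05. The fit was tested on simulated data. All measured members were named, along with CDK4, CDK6 and up to 4 genes per context list with the smallest adjusted p. The members and lists were chosen with earlier results of these data known. Alternatives were the replicate block, each array left out, other scalings, other choices of probe set, a level filter, other variance estimates and a threshold of 0.01. Figures were drawn with matplotlib 3.10.9.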

Additional observations from a re-analysis of the deposited data

How the results depend on the processing

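Of the 26 called members, 20 kept their direction and their call under every alternative run in which they had a probe set, and STC1, STC2, P4HA1, BHLHE41, WSB1 and ZNF395 did not under at least 1. Of the 7 not called, NRN1, PGM1 and AK4 were called under at least 1 alternative and 4 under none, and AK4, LOX, RORA and FAM13A changed sign under at least 1. The count of members called lower stayed between 22 and 25 except on probe sets with a plain name, where 22 members had one and 12 were lower. The count called higher was 1 on plain-name probe sets, with the mean of all probe sets, with trend and robust variance, without variance moderation and at a threshold of 0.01. With 1 array left out, 24 to 25 members were lower and 1 to 2 higher, with a median from -0.68 to -0.61, and 1998 to 2208 genes of the table were lower and 2209 to 2518 higher. The median was -0.55 with the spike-in scaling, -0.49 with the mean of all probe sets and -0.35 on plain-name probe sets. On plain names BHLHE41 (0.11) and WSB1 (0.098) changed sign without a call, and P4HA1 (-0.11) and ZNF395 (-0.076) lost theirs. In that order, these plain-name probe sets had mean levels of 4.48, 4.72, 3.05 and 3.82. The probe sets that stood for the genes had 6.77, 10.63, 12.26 and 9.51. PGM1 was called lower with trend and robust variance (-0.12). In the whole table, 1320 genes were lower and 4731 higher with the spike-in scaling, and 1523 and 1803 at the threshold of 0.01. Fewer members have a plain-name probe set and fewer genes can pass a stricter threshold, and for the other differences the cause was not tested. Same-numbered arrays of the groups did not deviate together (correlations of -0.010, -0.12 and -0.0066), so the numbers were not taken to pair them. With the replicate block 24 members were lower and 2 higher, and 2257 and 2481 genes of the table. Precision is limited by the 3 arrays per group, and no detection calls were used.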
